A study of Mus musculus with 4 samples.

Results

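The genes described here encode subunits of heterochromatin, NuRD and BAF complexes, together with histone demethylases and a few related remodellers. They were chosen by symbol from a list of 49 genes. Of these, 45 had a probe set that the platform annotation gives to that gene alone, and they stand among 22180 genes named this way on the array. Smarcd3 and Actl6a were named only by probe sets shared with another gene, and Suv39h1 and Suv39h2 by none listed, so these 4 were not analysed here. Where several probe sets stood for a gene (4 of the 45), the brightest on average was used.

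Heterochromatin is compact, largely silent chromatin in which methylated histone H3 lysine 9 is bound by HP1 proteins. NuRD couples a CHD family ATPase that moves nucleosomes to histone deacetylases and methyl-CpG binding proteins, and represses or tunes transcription. BAF, the mammalian SWI/SNF complex, opens chromatin and is assembled from alternative, paralogous subunits that differ between cell types. Pluripotent cells are known for a form of BAF built around Smarca4 and Smarcc1, whereas many differentiated cells also use Smarca2 and Smarcc2.

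Total RNA of 4 mouse cultures was measured on 1 array each. The control was a bulk culture of reprogrammable MEF (mouse embryonic fibroblasts carrying inducible reprogramming factors) at day 6 of doxycycline with Firefly knockdown, Firefly being an insect luciferase that mouse cells lack. A second day 6 culture carried a Sumo2 knockdown, Sumo2 being a small protein modifier. The other arrays held iPSC (induced pluripotent stem cells) named 38 h and 10 day, which the labels call stable clones from Sumo2 knockdown fibroblasts. All 4 came from strain Black6-129X1/SvJ, a pool of male and female, and from cells grown in embryonic stem cell medium with serum, and the labels give ascorbic acid and doxycycline as the treatment. No iPSC line from a Firefly culture was among the samples, so both lines share the knockdown history of the second culture, and the labels do not say whether an array holds 1 clone or what the 38 h and 10 day count.

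The values are log2 expression, so a difference of 1 is 2-fold, and levels of different genes are not compared because probe sets respond differently. The measuring floor, the median of single-gene probe sets, lay at 6.64 to 6.67, and all 45 genes stood above it on all 4 arrays. Of 10 pluripotency markers, 9 rose in iPSC, while Dppa5a lay below the floor on every array. Of 10 fibroblast markers, 5 fell in iPSC and 0 rose. Sumo2 itself was at 93.8% of the control in the culture labelled Sumo2 knockdown, so the transcript does not show the knockdown and each direction at day 6 rests on the label. In bulk RNA, fewer cells of a type and less RNA per cell cannot be told apart.

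RefSeq promoter windows (250 bases before to 50 after the most upstream start, build GRCm38.p6) were found for 35 of the 45 genes. The windows of the SWI/SNF ATPase genes Smarca2 and Smarca4 are shown because one fell steeply while the other was not called, that of Hells because it rose most, and that of Kdm3a as a demethylase gene that rose. They lie on the plus strand at chr19:26604910-26605209 for Smarca2, chr9:21615919-21616218 for Smarca4 and chr19:38930740-38931039 for Hells, and on the minus strand at chr6:71632868-71633167 for Kdm3a. Capitals mark an E2F motif (TTTCCCGC, TTTGGCGC, TTTCGCGC or TTTGCCGC) or a hypoxia response core (ACGTG or GCGTG), each searched on both strands, and no match of one kind overlaps the other here.
Smarca2: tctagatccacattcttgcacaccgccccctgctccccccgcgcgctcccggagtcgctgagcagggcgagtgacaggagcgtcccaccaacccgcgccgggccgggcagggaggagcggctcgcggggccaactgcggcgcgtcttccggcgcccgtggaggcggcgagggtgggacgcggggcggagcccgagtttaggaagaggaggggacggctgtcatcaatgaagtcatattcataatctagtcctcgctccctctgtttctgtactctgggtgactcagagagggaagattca
Smarca4: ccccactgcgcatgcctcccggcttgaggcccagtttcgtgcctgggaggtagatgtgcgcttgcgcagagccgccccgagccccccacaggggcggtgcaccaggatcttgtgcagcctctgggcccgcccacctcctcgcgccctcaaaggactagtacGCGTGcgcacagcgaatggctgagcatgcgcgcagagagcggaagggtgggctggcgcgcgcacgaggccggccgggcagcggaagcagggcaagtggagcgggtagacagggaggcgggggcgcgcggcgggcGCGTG
Hells: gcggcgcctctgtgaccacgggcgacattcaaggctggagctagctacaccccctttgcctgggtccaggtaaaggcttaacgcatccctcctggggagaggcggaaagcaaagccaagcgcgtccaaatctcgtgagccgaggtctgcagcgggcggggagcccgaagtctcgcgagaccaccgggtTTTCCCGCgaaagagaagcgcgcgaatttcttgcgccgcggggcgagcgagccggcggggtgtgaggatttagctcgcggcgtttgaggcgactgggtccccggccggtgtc
Kdm3a: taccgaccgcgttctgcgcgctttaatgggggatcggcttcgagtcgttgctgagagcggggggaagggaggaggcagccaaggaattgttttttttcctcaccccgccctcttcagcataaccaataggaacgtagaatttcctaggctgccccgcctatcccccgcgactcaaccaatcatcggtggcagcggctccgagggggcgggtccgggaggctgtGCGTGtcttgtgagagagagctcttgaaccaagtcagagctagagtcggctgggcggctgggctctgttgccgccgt
The Hells window holds the E2F motif TTTCCCGC 62 bases before the start. E2F factors control genes of the S phase, and their motif was present in 4.28% of the windows of 9999 measured genes and in 3 of the 35 windows here, those of Hells, Cbx3 and Smarcd1. The hypoxia response core is far more common, in 62.7% of measured genes, in 23 of the 35 windows, and in those of Smarca4 and Kdm3a among the windows shown. The Smarca2 window holds neither, although it has 29 CpG dinucleotides against a median of 21 over measured genes and 33 in the Smarca4 window. These matches describe the letters of the windows only.

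The comparison of both iPSC lines with both day 6 cultures asked which of these genes differ between pluripotent cells and cells in the course of reprogramming. Most subunit genes were not called, while single paralogues moved by large steps. The ATPase genes Smarca2 of BAF and Chd3 of NuRD fell 12.7-fold and 4.69-fold, and the helicase gene Hells rose 5.07-fold. Among 45 genes, 12 rose (26.7%) and 5 fell (11.1%) at a limma adjusted p under 0.05, against 29.0% and 17.8% of all 12735 measured genes. With a 2-fold size rule added, 6 rose and 3 fell, against 14.3% and 9.12% of all genes. At those thresholds the shares called were below the background. At an adjusted p under 0.01, 9 rose (20.0%) and 5 fell (11.1%), against 15.4% and 10.1% of all genes, so whether the share lies below or above the background depends on the threshold. Without the Sumo2 array 15 rose (33.3%, against 22.7% of all genes), and without the Firefly array 9 rose (20.0%, against 15.0%). The median difference was 0.28 over the 45 genes and 0.15 over all measured genes.

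That median of all genes dropped to 0.03 after a cyclic loess scaling, in which the 45 genes had a median of 0.11, so they lay 0.13 above all genes with the deposited values and 0.08 above with loess. After loess 11 rose (24.4%, against 23.3% of all genes) and 7 fell (15.6%, against 21.2%). Each arm of this test holds 2 arrays of different cultures, which are not replicates of 1 condition, so the SE below contains the knockdown and the difference between lines. The labels do not say whether cultures were separate, and p-values measure only the spread between these arrays. That spread is not the gene's alone. For each gene, limma combined its own spread (2 residual degrees of freedom) with the spread usual for genes of similar level (4.38 prior degrees of freedom). The SE of a gene can therefore lie above or below what its own 4 values give.

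**Figure D1:**
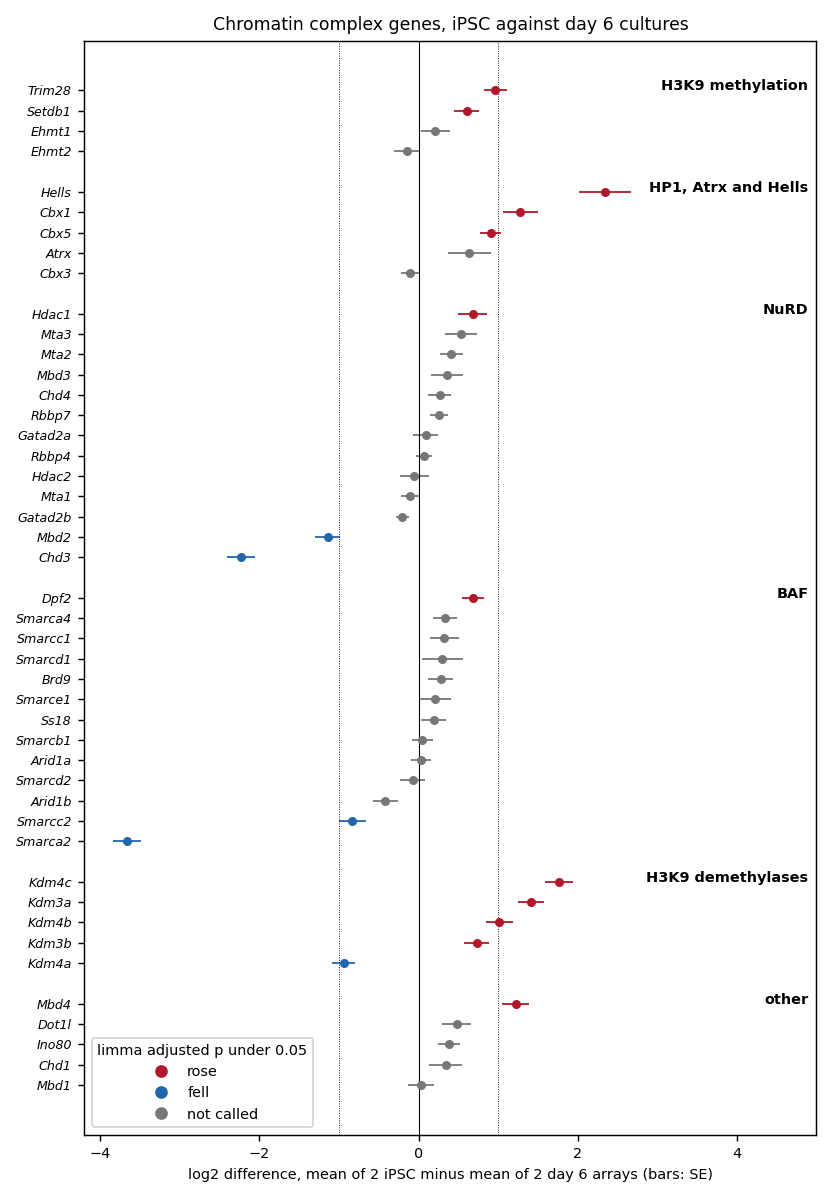
Log2 difference of the mean of both iPSC arrays from the mean of both day 6 arrays for 45 genes, grouped by complex, with bars for the limma SE; red points rose and blue points fell at an adjusted p under 0.05, grey points were not called, and dotted lines mark 2-fold. Smarca2 at -3.66 and Hells at 2.34 lie at the ends, and 28 genes are grey.

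Of the 4 measured genes of histone H3 lysine 9 methylation, 2 rose and 0 fell (median log2 difference 0.41). Of the 5 genes of HP1, Atrx and Hells, 3 rose and 0 fell (median 0.91). Among all measured genes 29.0% rose and 17.8% fell, and groups of 4 or 5 genes are too small to set firmly against these shares. Trim28, the co-repressor that KRAB zinc finger proteins use to recruit silencing enzymes, read 10.88 with Firefly and 11.26 with Sumo2 knockdown, and 12.10 and 11.96 in the 38 h and 10 day lines. Both lines stood above both day 6 cultures, and Trim28 rose 1.95-fold (limma adjusted p = 0.00332; log2 difference 0.96, SE 0.15). Setdb1, the methyltransferase that Trim28 recruits, read 9.51 and 9.78 at day 6 and 10.26 and 10.23 in the lines, a rise of 1.52-fold (limma adjusted p = 0.0229). Its call was lost without the Firefly array (difference 0.47, limma adjusted p = 0.0990), without the 38 h array (0.58, limma adjusted p = 0.0662), without the 10 day array (0.62, limma adjusted p = 0.0561) and after cyclic loess (limma adjusted p = 0.0598), against a difference of 0.60 with all arrays.

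The euchromatic methyltransferase partners Ehmt1 and Ehmt2 (GLP and G9a) were not called. Ehmt1 read 9.13 and 9.45 at day 6 against 9.59 and 9.41 in iPSC, and Ehmt2 read 9.89 and 9.93 against 9.91 and 9.62. For each of them the values of the cell states overlapped, and the log2 differences were 0.21 (SE 0.18) for Ehmt1 and -0.15 (SE 0.17) for Ehmt2.

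Of the 3 HP1 genes, 2 rose and 1 was not called. Cbx1 (HP1 beta) read 8.70 with Firefly and 9.21 with Sumo2 knockdown, then 10.37 and 10.10 in the 38 h and 10 day lines. It rose 2.43-fold (log2 difference 1.28, SE 0.22, limma adjusted p = 0.00501), with both lines above both cultures. Cbx5 (HP1 alpha) read 10.70 and 10.96 at day 6 and 11.78 and 11.69 in iPSC, a rise of 1.88-fold (limma adjusted p = 0.00271). Cbx3 (HP1 gamma), by its brightest probe set, read 10.96 and 10.97 at day 6 and 10.87 and 10.83 in iPSC, and was not called (-0.11, SE 0.12). Its other 3 probe sets differed by 0.16, 0.57 and -0.08, so the sign for Cbx3 depends on the probe set (0.20 by their median). Copies of Cbx3 elsewhere in the genome may share probes, so its values are uncertain.

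Hells, a SWI/SNF-like helicase (also called Lsh) needed for DNA methylation of repeats, read 7.40 with Firefly and 8.42 with Sumo2 knockdown, and 10.32 and 10.19 in the 38 h and 10 day lines. Both lines lay above both cultures. The rise of 5.07-fold (log2 difference 2.34, SE 0.33, limma adjusted p = 0.00249) was the largest of the 45 genes. Atrx, a remodeller that deposits histone H3.3 at repeats, read 9.07, 9.66, 9.72 and 10.29 on the Firefly, Sumo2, 38 h and 10 day arrays. Its difference of 0.64 (SE 0.27) was not called (limma adjusted p = 0.0988), but was without the 38 h array (0.0253).

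Proliferation markers also differed between the cell states. Of 11 measured proliferation genes, 8 rose in iPSC (72.7%, against 29.0% of all measured genes) and 0 fell, with a median log2 difference of 1.08. Their median level was 10.09 with Firefly, 10.62 with Sumo2 knockdown, 11.33 in 38 h and 11.19 in 10 day iPSC. Their part in the heterochromatin values was not tested.

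Of 13 NuRD genes, 1 rose (7.69%), 2 fell (15.4%) and 10 were not called, with a median log2 difference of 0.09. Among all measured genes 29.0% rose and 17.8% fell. Chd3 and Chd4 encode alternative ATPases of the complex. Chd3 read 10.53 with Firefly and 10.65 with Sumo2 knockdown, but 8.21 and 8.51 in the 38 h and 10 day lines. It fell by 2.23 on the log2 scale (SE 0.17, limma adjusted p = 0.000443), which is 4.69-fold, with both lines far below both cultures. A second, dimmer Chd3 probe set, below the floor in iPSC, differed by -1.77. Chd4 read 10.84 and 10.93 at day 6 and 11.31 and 11.00 in iPSC, and its difference of 0.27 (SE 0.14) was not called.

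The methyl-CpG binding subunits Mbd2 and Mbd3 define separate forms of NuRD, and Mbd3 does not require methylated DNA. Mbd2 read 9.48 and 9.39 at day 6 and 8.28 and 8.30 in iPSC. It fell by 1.14 on the log2 scale (SE 0.16, limma adjusted p = 0.00239), or 2.21-fold, and the cell states did not overlap. Mbd3 read 9.31 and 9.44 at day 6 against 9.97 and 9.50 in iPSC, with a difference of 0.36 (SE 0.20) that was not called (limma adjusted p = 0.183).

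Of the deacetylase genes, Hdac1 read 10.18 with Firefly and 10.67 with Sumo2 knockdown and 11.17 and 11.04 in the 38 h and 10 day lines. It rose 1.60-fold (limma adjusted p = 0.0246), a call lost without the Firefly array (limma adjusted p = 0.0854) or the 38 h array (0.0576). Hdac2 read 10.04, 10.48, 10.16 and 10.26 in the same order, with the cell states overlapping. Its log2 difference was -0.05 (SE 0.18), or 0.17 without the culture labelled Sumo2 knockdown.

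The MTA scaffold genes, which anchor the deacetylases, were not called. Mta1 read 11.51, 11.66, 11.40 and 11.55 on the Firefly, Sumo2, 38 h and 10 day arrays, and Mta2 read 10.37, 10.64, 10.98 and 10.85. Mta3 read 10.27 and 10.38 at day 6 but parted between the lines, with 10.58 in 38 h and 11.15 in 10 day iPSC. Mta2 differed by 0.41 (limma adjusted p = 0.0594, and 0.0468 without the Sumo2 array) and Mta3 by 0.54 (0.0709, and 0.00733 without the 38 h array), while Mta1 overlapped between states.

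Gatad2a and Gatad2b, zinc finger subunits that bridge the parts of NuRD, and the histone chaperones Rbbp4 and Rbbp7 were not called. Gatad2a read 10.54 and 10.89 at day 6 and 10.85 and 10.75 in iPSC. Gatad2b read 12.08 and 12.07 against 11.88 and 11.86, a difference of -0.21 (SE 0.08) that was not called with the deposited values (limma adjusted p = 0.0804) but was after cyclic loess (-0.34, 0.0244). Rbbp4 read 11.27 and 11.36 against 11.40 and 11.36, and Rbbp7 read 11.35 and 11.52 against 11.60 and 11.78. Gatad2a differed by 0.09 (SE 0.16), Rbbp4 by 0.07 (SE 0.10) and Rbbp7 by 0.26 (SE 0.12).

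Of 13 BAF genes, 1 rose (7.69%), 2 fell (15.4%) and 10 were not called, with a median log2 difference of 0.19. Among all measured genes 29.0% rose and 17.8% fell. Smarca2 (BRM), 1 of the alternative ATPases, read 10.90 with Firefly and 10.68 with Sumo2 knockdown, against 7.04 (38 h) and 7.22 (10 day) in iPSC, little above the measuring floor. It fell by 3.66 on the log2 scale (SE 0.17, limma adjusted p = 0.000137), or 12.7-fold, and the cell states were far apart. Smarca4 (BRG1), the other ATPase, read 10.73 and 11.09 at day 6 and 11.31 and 11.18 in iPSC. Its difference of 0.33 (SE 0.15) was not called (limma adjusted p = 0.118), but was without the Sumo2 array (0.51, limma adjusted p = 0.0444).

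The scaffold paralogues Smarcc1 (BAF155) and Smarcc2 (BAF170) form another such pair. Smarcc2 read 9.68 and 9.49 at day 6 and 8.70 and 8.80 in iPSC, and fell 1.78-fold (limma adjusted p = 0.00838; log2 difference -0.83, SE 0.16). The call missed the threshold without the Firefly array (-0.74, limma adjusted p = 0.0578). Smarcc1 read 10.33 and 10.76 against 10.99 and 10.75, so that the cell states overlapped, and its difference of 0.33 (SE 0.18) was not called.

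Arid1a and Arid1b are mutually exclusive DNA-binding subunits. Arid1a read 11.12 and 11.35 at day 6 and 11.32 and 11.22 in iPSC, and Arid1b read 10.11 and 9.90 against 9.54 and 9.63. Arid1b differed by -0.42 (SE 0.16, limma adjusted p = 0.0708), and by -0.60 after cyclic loess, where it was called (0.0263), while Arid1a differed by 0.03 (SE 0.12). Smarcd1, a subunit that links BAF to transcription factors, read 10.12, 10.74, 10.99 and 10.46 on the Firefly, Sumo2, 38 h and 10 day arrays. Its probe sets disagreed about cell state, with a difference of 0.30 for the brighter and -0.59 for the dimmer, so no direction is given for Smarcd1. Smarcd2 read 8.94, 8.96, 8.90 and 8.85, and was not called.

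Of the other BAF genes, Dpf2, a PHD finger subunit, read 10.12 and 10.28 at day 6 and 10.85 and 10.93 in iPSC, and rose 1.61-fold (limma adjusted p = 0.00822; log2 difference 0.69, SE 0.14). The core subunit gene Smarcb1 differed by 0.05 (SE 0.13), Smarce1 by 0.21 (SE 0.20), Ss18 by 0.19 (SE 0.16) and Brd9, which marks the non-canonical form of BAF, by 0.28 (SE 0.16), and these 4 were not called.

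**Figure D2:**
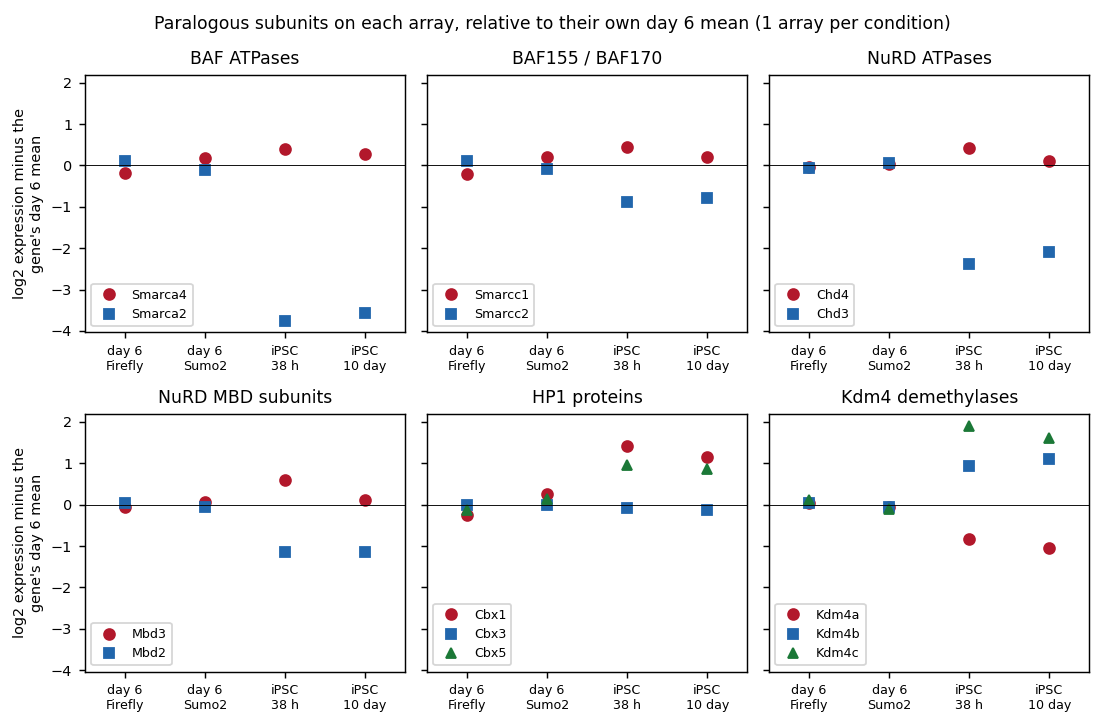
Log2 expression of paralogous subunits on each of the 4 arrays, each gene drawn relative to its own mean over both day 6 arrays, so heights compare changes and not levels. Smarca2, Chd3, Smarcc2, Mbd2 and Kdm4a lie below 0 in both iPSC lines, and Cbx1, Cbx5, Kdm4b and Kdm4c above. Of the genes not called, Cbx3 also lies below 0 in both lines, and Smarca4, Chd4, Smarcc1 and Mbd3 above.

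Each of the 5 demethylase genes passed the test, 4 of them upwards, where 29.0% of all measured genes rose and 17.8% fell. Kdm3a and Kdm3b remove methyl groups from mono- and dimethylated lysine 9 of histone H3, and the Kdm4 enzymes act on the trimethylated form and also on lysine 36. Kdm4c read 8.80 with Firefly and 8.60 with Sumo2 knockdown, and 10.61 and 10.32 in the 38 h and 10 day lines, a rise of 3.40-fold (log2 difference 1.76, SE 0.18, limma adjusted p = 0.00091). Kdm3a, whose promoter window is shown above, read 8.85 and 8.90 at day 6 and 10.19 and 10.39 in iPSC, a rise of 2.66-fold (1.41, SE 0.16, limma adjusted p = 0.00127). The day 6 cultures differed by -0.21 for Kdm4c and 0.05 for Kdm3a, and the cell states lay well apart for both.

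Kdm4b read 8.42 and 8.32 at day 6 and 9.30 and 9.48 in iPSC, and rose 2.02-fold (limma adjusted p = 0.00423). Kdm3b read 9.91 and 10.22 against 10.83 and 10.77, a rise of 1.66-fold (limma adjusted p = 0.011) that missed the threshold without the Firefly array (0.0512). Against these, Kdm4a read 10.77 with Firefly and 10.68 with Sumo2 knockdown against 9.89 (38 h) and 9.68 (10 day) in iPSC. Kdm4a fell by 0.94 on the log2 scale (SE 0.15, limma adjusted p = 0.00375), or 1.92-fold, with no overlap, so the Kdm4 genes took opposite directions.

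The remaining genes belong to none of these groups. Mbd4, a thymine DNA glycosylase that repairs mismatches at methylated CpG sites, read 6.97 and 7.20 at day 6 and 8.37 and 8.23 in iPSC, and rose 2.33-fold (log2 difference 1.22, SE 0.17, limma adjusted p = 0.00269). Dot1l, the histone H3 lysine 79 methyltransferase, differed by 0.48 (SE 0.18, limma adjusted p = 0.0690), and was called without the Sumo2 array (0.0270). Chd1, a remodeller of active chromatin, differed by 0.34 (SE 0.21), the remodeller ATPase gene Ino80 by 0.38 (SE 0.14) and Mbd1 by 0.03 (SE 0.16). None of these last 3 was called.

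The ratio of paralogues within an array shows how subunits changed relative to each other. It was computed for 18 paralogue pairs and has no level meaning, so only the iPSC mean minus the day 6 mean is given, with the SD of arrays around the mean of their own cell state (n = 4 arrays). An exact two-sided permutation test of 2 against 2 arrays cannot give a p below 0.333, so these ratios carry no test. The Smarca4 to Smarca2 ratio was 3.99 higher in iPSC on the log2 scale (SD 0.33), which is 15.9-fold, and the Chd4 to Chd3 ratio 2.50 (SD 0.30). The Mbd3 to Mbd2 ratio was 2.83-fold higher (log2 SD 0.27). Next came Cbx1 to Cbx3 with 1.39 (SD 0.28), Smarcc1 to Smarcc2 with 1.16 (SD 0.35) and Cbx5 to Cbx3 with 1.02 (SD 0.13). In the other direction, the Kdm4a to Kdm4b ratio differed by -1.96 (SD 0.20), since one fell and the other rose.

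Smaller differences were 0.73 (SD 0.12) for Hdac1 to Hdac2, 0.75 (SD 0.24) for Kdm4c to Kdm4b, 0.68 (SD 0.19) for Kdm3a to Kdm3b, -0.52 (SD 0.15) for Mta1 to Mta2, and 0.45 (SD 0.24) for Arid1a to Arid1b. For Smarcd1 to Smarcd2 (0.37, SD 0.39) and Mta2 to Mta3 (-0.13, SD 0.36) the difference was smaller than the SD. Leaving out 1 array gave 0.07 to 0.67 for Smarcd1 to Smarcd2 and -0.47 to 0.22 for Mta2 to Mta3, whose sign turned without the 10 day array. The other 4 ratios, Ehmt2 to Ehmt1, Cbx5 to Cbx1, Gatad2a to Gatad2b and Rbbp4 to Rbbp7, differed by -0.35, -0.37, 0.29 and -0.19. In the ATPase, BAF155 and BAF170, and MBD pairs Smarca2, Chd3, Smarcc2 and Mbd2 passed the test downwards, while Smarca4, Chd4, Smarcc1 and Mbd3 did not pass. In the deacetylase pair Hdac1 passed upwards and Hdac2 did not pass.

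**Figure D3:**
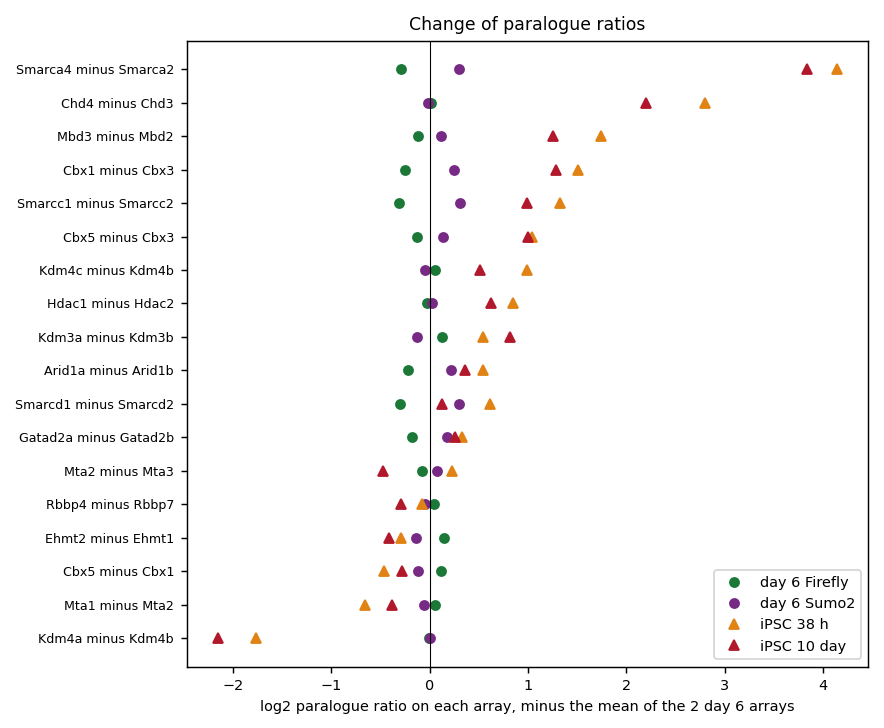
Log2 ratio of 18 paralogue pairs on each array, drawn relative to the mean of both day 6 arrays; circles are day 6 and triangles iPSC arrays. The Smarca4 to Smarca2 ratio lies 3.99 higher in iPSC on average, and the Kdm4a to Kdm4b ratio differs by -1.96.

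The comparison within day 6 asked what differed between the culture labelled Sumo2 knockdown and the Firefly control, with 1 array against 1 and therefore no test and no replicate check. Hells differed most, at 7.40 against 8.42, which is 2.03-fold. Smarcd1 was 1.54-fold higher (10.12 against 10.74; its second probe set differed by 0.64 as well), and Atrx 1.51-fold (9.07 against 9.66). These were the 3 of 45 genes (6.67%) at least 1.5-fold higher, against 4.09% of all 11740 measured genes. Hells alone was 2-fold higher, against 0.945% of all genes. In the other direction 0 of 45 were 1.5-fold lower (background 2.81%) and 0 were 2-fold lower (background 0.230%). After cyclic loess only Hells, at 1.95-fold, passed 1.5-fold, while Smarcd1 was at 1.45-fold and Atrx at 1.44-fold.

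Just short of 1.5-fold stood Chd1 (log2 difference 0.52), Cbx1 (0.51) and Hdac1 (0.49). The lowest were Smarca2 (-0.23), Arid1b (-0.21), Kdm4c (-0.21) and Smarcc2 (-0.19). Of the 45 genes 35 were higher (77.8%), against 53.7% of all genes, with a median difference of 0.16 against 0.02. After cyclic loess 27 of 45 were higher (60.0%, against 47.1% of all genes), so the surplus over all genes moved with the scaling. By group, all 5 genes of the HP1, Atrx and Hells group were higher (median 0.51), as were all 4 measured genes of lysine 9 methylation (median 0.30). So were 11 of 13 NuRD and 9 of 13 BAF genes, but only 2 of 5 demethylase genes (median -0.09). Cbx3 (0.004) and Ehmt2 (0.04) were higher by little. After cyclic loess they were lower (-0.085 and -0.034), as were Chd4, Rbbp4, Smarcb1, Smarcd2 and Kdm3a, so these counts depend on the scaling. The other Cbx3 probe sets differed by 0.14, 0.28 and -0.50.

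Markers of cell state and proliferation differed within the same pair of arrays. In the Sumo2 culture all 11 proliferation genes were higher, with a median difference of 0.53, and so were all 7 measured pluripotency markers (median 2.33), while all 10 fibroblast markers were lower (median -0.48). Of blood and macrophage markers 3 of 6 were measured at day 6, with a median difference of -0.39. Lyz2 was lower in the Sumo2 culture by 1.06 (7.15 against 6.09), Itgam by 0.39 and Cd68 higher by 0.04, while Ptprc, Adgre1 and Csf1r lay below the floor on every array. In the Sumo2 culture Lyz2 and Itgam (6.57) also lay below the floor (6.67), so their differences are uncertain. Endothelial, neural and muscle markers had medians of 6.50 and 6.54, 7.16 and 7.19, and 7.39 and 7.43 on the Firefly and Sumo2 arrays. The endothelial medians lay below the floor, and of its 4 genes only Tek (10.50 on both arrays) stood well above it. The part of these markers in the chromatin gene values was not tested.

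**Figure D4:**
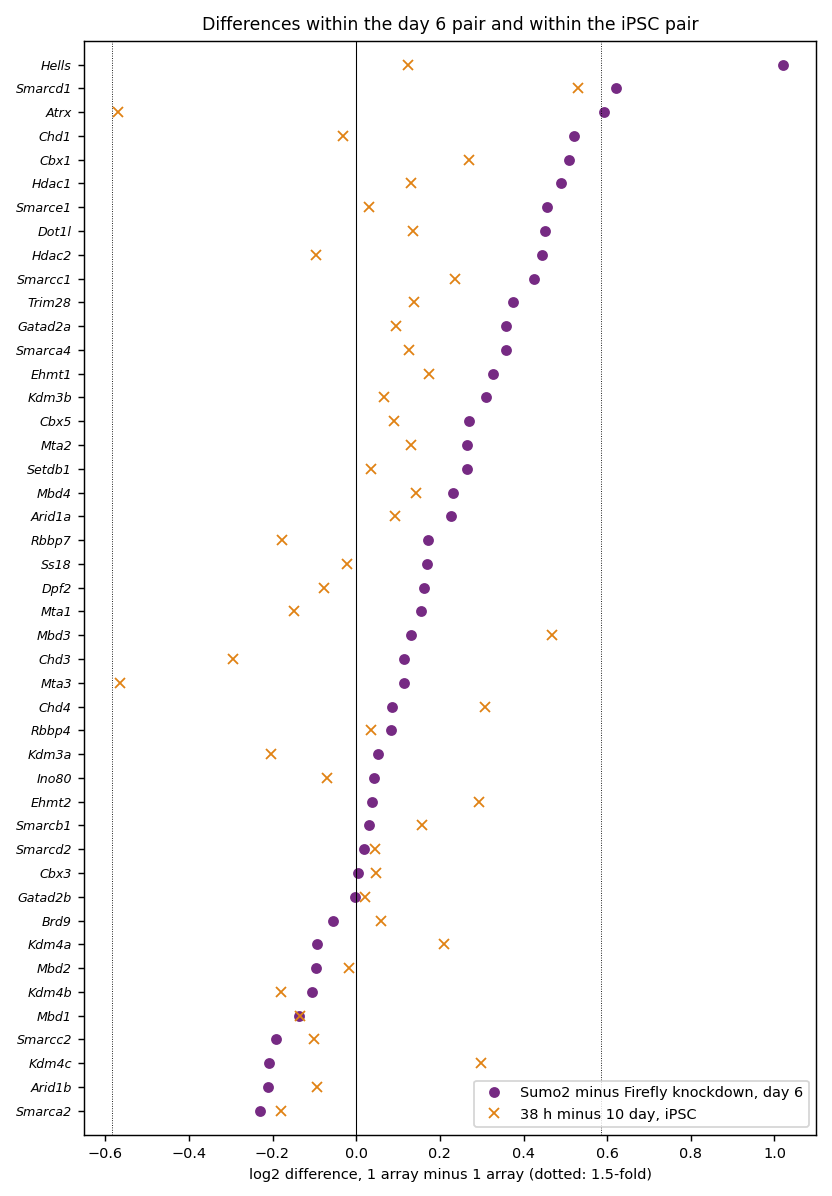
Log2 differences of 45 genes between the day 6 cultures (circles, Sumo2 minus Firefly knockdown) and between the iPSC lines (crosses, 38 h minus 10 day), each 1 array minus 1 array; dotted lines mark 1.5-fold. Hells at 1.02, Smarcd1 and Atrx are the circles beyond the right line, and 0 crosses lie beyond either line.

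The iPSC lines were compared in the same way, 1 array against 1. Of 45 genes 0 were 1.5-fold higher in 38 h iPSC (background 4.11% of 11754 genes) and 0 were 1.5-fold lower (background 6.44%). Past 2-fold there were likewise 0, against 1.03% higher and 2.19% lower of all genes. Atrx and Mta3 came nearest, each lower in 38 h by 0.57, followed by Smarcd1, which was higher by 0.53, and Mbd3, higher by 0.47. The SD of the 45 differences was 0.22 between the lines and 0.26 between the day 6 cultures, against 0.41 and 0.33 over all measured genes. All 45 stood above the floor on all 4 arrays, as did only 9927 of the 12735 measured genes. Level was not matched, so neither the smaller SD nor the 0 genes past 1.5-fold sets these genes apart.

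Lists of further chromatin genes were read beside the same background, in which 29.0% of measured genes rose and 17.8% fell. Of 29 heterochromatin genes 27 were measured, and 17 rose in iPSC and 1 fell (Pphln1, -0.60), with a median difference of 0.77. Lbr, the lamin B receptor that tethers heterochromatin to the nuclear envelope, differed most (9.51, 10.20, 11.59 and 11.41 on the Firefly, Sumo2, 38 h and 10 day arrays; log2 difference 1.64, SE 0.23, limma adjusted p = 0.00269). Tasor, a subunit of the HUSH silencing complex, followed with 1.55, the histone H4 lysine 20 methyltransferase gene Kmt5c with 1.45 and the chromatin assembly gene Chaf1b with 1.42. Of 22 NuRD partners and co-repressors 17 were measured, with 8 up, 3 down and a median of 0.27. Rcor2, a partner of the demethylase Kdm1a, rose by 3.53 (SE 0.31, limma adjusted p = 0.00058), and the NuRD-binding zinc finger genes Sall4 and Sall1 by 2.66 and 2.47. Sall4 is also among the pluripotency markers. Bcl11a lay below the floor in both iPSC lines and fell at least 3.73-fold counted from it.

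Of 15 further genes of BAF or related to it 13 were measured, with 3 up, 1 down and a median of 0.27. Bicra, a subunit of the non-canonical form, fell by 1.34, while its paralogue Bicral rose by 0.88, the related remodeller gene Smarcad1 by 1.13 and the PBAF subunit gene Phf10 by 0.71. Of 26 genes of other remodeller families 24 were measured, and 13 rose and 1 fell (Baz1a, -1.03), with a median of 0.67. Chd2 (1.58), Baz2a (1.40), Chd1l (1.35) and the INO80 and SWR1 family ATPase gene Ruvbl2 (1.08) rose most of these. The medians stand beside 0.15 for all measured genes.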

How the data were processed

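Total RNA of 4 cultures was measured on 1 array each. The deposited values are log2 expression per probe set, made by the authors with RMA in Expression Console of Affymetrix, as the submitters' processing notes name them, and versions and settings are not given in the sources used here, and base 2 was taken because RMA writes that scale. Quantile normalization in RMA hides changes of total RNA, and RMA shrinks folds of dim probe sets. The platform annotation lists 1 gene for 23521 of the 41345 probe sets, several genes for 1814 and none for 16010.

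A gene was measured when it reached the floor on at least 1 array compared. Both iPSC arrays were tested against both day 6 arrays across all measured genes with limma 3.58.1 in R 4.3.3. The fit used lmFit, then eBayes with trend, with 2 residual and 4.38 prior degrees of freedom. Genes were called at 0.05 after Benjamini-Hochberg adjustment. Comparisons of 1 array with 1 used 1.5-fold and 2-fold size rules. The scripts were tested on simulated data. Each listed gene was to be named, with values on all arrays for paralogues, the 12 largest differences and genes past 1.5-fold, and up to 4 called genes of each further list. Pphln1, Baz1a, Kdm1a, Phf8, Jmjd1c, Kdm7a and Kdm4d are named besides. The genes, lists and tests were chosen with earlier results of these data known. Alternatives covered scaling, probe set choice, the floor, the trend, thresholds and leaving out each array. The labels carry no batch or date. Arrays give no counting depth, and their number limits the precision.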

Additional observations from a re-analysis of the deposited data

How the results depend on the processing

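No paired analysis was possible because the labels carry no replicate numbers and each condition has 1 array. Leaving out each array in turn (1 residual degree of freedom, the lone array of an arm being assumed to vary like the other arm) gave 9 to 15 genes that rose (20.0% to 33.3%) and 4 to 5 that fell, where 15.0% to 25.4% of all measured genes rose and 9.28% to 15.9% fell. Of the 17 called genes, 13 stayed called in the same direction without the Firefly array, 17 without the Sumo2 array, 15 without the 38 h and 16 without the 10 day array. All 17 stayed called after median centring, with the median over probe sets, with no filter, with the filter on every array, without the trend and with values set to the floor, and 16 after cyclic loess. At an adjusted p under 0.01, 9 rose and 5 fell (15.4% and 10.1% of all genes), and with 2-fold added to 0.05, 6 and 3 (14.3% and 9.12%). The count of genes 1.5-fold higher at day 6 was 3, against 1 after cyclic loess, 2 after median centring and 1 at 2-fold.

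Differences near 0, none of them called, changed sign. With cyclic loess they were -0.17 for Mbd1, -0.082 for Gatad2a, -0.086 for Rbbp4, -0.13 for Smarcb1, -0.12 for Arid1a and -0.00058 for Ss18. With the median over probe sets they were 0.20 for Cbx3 and -0.15 for Smarcd1, and the ratio change of Smarcd1 to Smarcd2 turned to -0.076. Other ratio changes shrank but kept their sign, to -0.067 for Rbbp4 to Rbbp7, 1.08 for Cbx1 to Cbx3 and 0.71 for Cbx5 to Cbx3. Leaving out 1 array gave ranges of -0.079 to 0.15 for Arid1a, -0.29 to 0.00022 for Ehmt2, -0.092 to 0.27 for Gatad2a, -0.28 to 0.17 for Hdac2, -0.043 to 0.095 for Mbd1, -0.032 to 0.12 for Smarcb1, -0.013 to 0.61 for Smarcd1 and -0.019 to 0.44 for Smarce1, and for the Mta2 to Mta3 ratio -0.47 to 0.22. The causes were not tested.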
